A study of Homo sapiens with 12 samples.

Results

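The 4 genes described here set how much active glucocorticoid is available to a cell: HSD11B2, HSD11B1, H6PD and SERPINA6. Their RNA was measured on 12 microarrays of T47D-MTVL cells, a derivative of the progesterone receptor positive human breast cancer line T47D that carries an integrated copy of the MMTV promoter, a hormone-responsive viral promoter. The cells were transfected with an siRNA against the chromatin remodeller CHD8 (siCHD8) or with a control siRNA (siCt), deprived of serum for 48 h, and then given 10 nM of the synthetic progestin R5020 or its ethanol vehicle (EtOH) for 6 h. The 4 conditions were therefore siCHD8 with R5020, siCHD8 with EtOH, siCt with R5020 and siCt with EtOH, with 3 arrays each, which the labels call biological replicates. All of them share the same line, the transfection and the serum deprivation, so no array shows untransfected or serum-fed cells. The genes were chosen with earlier results of these data known, so their ranks and p-values below are not independent of that choice. Their rows were found by symbol in the platform annotation, with the brightest probe set by the mean of the 12 arrays standing for each gene. All 4 matched, each with exactly 1 probe set, so brightness made no choice, and they are 4 of the 18418 genes that have a probe set of their own, among 21214 probe sets tested.

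Cortisol, the main human glucocorticoid, is switched on and off inside cells by a pair of enzymes. HSD11B2 oxidises it to inactive cortisone, which in kidney tubule cells keeps cortisol away from the mineralocorticoid receptor, and HSD11B1 runs the opposite reaction in the endoplasmic reticulum with NADPH that H6PD supplies there. SERPINA6 encodes corticosteroid-binding globulin, a serpin that inhibits no protease and instead carries cortisol and progesterone in blood plasma, and its main source is the liver.

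The sequence before the start of SERPINA6 is shown because this was the gene of the group that differed with the siRNA. RefSeq (build GRCh38.p14) places SERPINA6 on the minus strand of chromosome 14, and the 250 bases before its start are chr14:94323337-94323586. They read, 5′ to 3′ in the direction of transcription, with the motif matches in capitals:
SERPINA6: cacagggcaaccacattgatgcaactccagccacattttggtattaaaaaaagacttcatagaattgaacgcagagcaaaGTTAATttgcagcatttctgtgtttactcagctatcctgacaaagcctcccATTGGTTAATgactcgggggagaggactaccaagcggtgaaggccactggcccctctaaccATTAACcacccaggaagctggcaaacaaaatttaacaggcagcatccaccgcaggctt

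Motifs chosen after the sequence had been seen were searched on both strands. GTTAAT, an arm of the palindrome that the liver transcription factor HNF1 binds, matched at 170 and 115 bases before the start and, as its reverse complement ATTAAC, at 58 bases. CCAAT matched as its reverse complement ATTGG at 119 bases and shares 1 base with the second of these. The letters AGAACA, an arm of the element bound by the progesterone, glucocorticoid, mineralocorticoid and androgen receptors, had no match in this window or in that of HSD11B1, and 1 match, as TGTTCT, at 204 bases before the start of H6PD. Among 35116 promoter windows of this length, 6.23% held GTTAAT, 32.0% held CCAAT and 12.4% held AGAACA on either strand. HSD11B2 had no window here and was not searched. The matches are letters in a window, and nothing was measured at them here.

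The probe sets are 7996563 for HSD11B2, 7909446 for HSD11B1, 7897441 for H6PD and 7981059 for SERPINA6. A value is a log2 intensity, so that a step of 1 is a doubling of the signal, and intensities of different genes are not set against each other because their probes differ. Against the median of all probe sets on the same array, SERPINA6 was above it on 12 of 12 arrays, H6PD on 11, HSD11B2 on 6 and HSD11B1 on 0. The 6 arrays on which HSD11B2 was above the median were those with R5020. HSD11B1 averaged a log2 intensity of 2.00 and is a dim probe set, so its small differences are near the lower end of what the array measures.

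**Figure D1:**
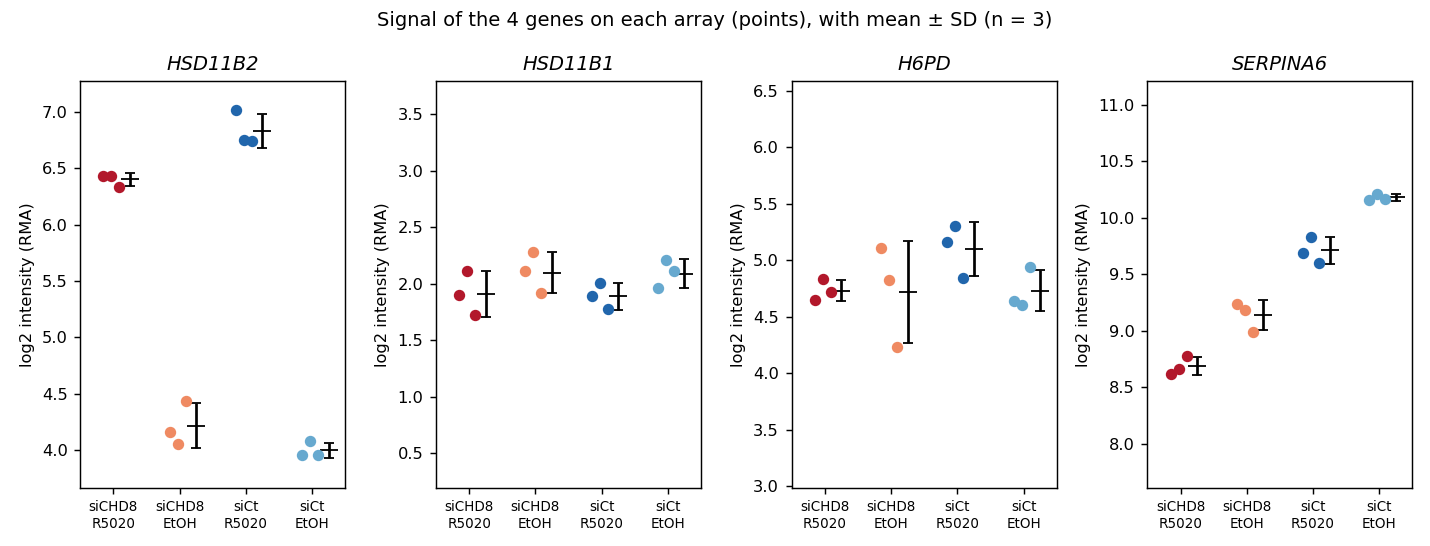
Log2 intensity of the 4 genes on each of the 12 arrays (points), by condition, with the mean and SD of 3 arrays (bars); each panel has its own vertical axis of equal length. HSD11B2 separates R5020 from EtOH arrays, SERPINA6 separates all 4 conditions, and HSD11B1 and H6PD overlap between R5020 and EtOH.

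A probe set was called for the hormone or for the siRNA when its fold exceeded 1.5 and its adjusted p was below 0.01, the limits of the study, and for a difference between hormone responses when its adjusted p was below 0.05. All adjusted p-values are from limma over 21214 probe sets. R5020 against EtOH called 5.6% of them in siCHD8 (3.37% higher, 2.23% lower) and 6.55% in siCt (4.4% higher, 2.15% lower). The knockdown called 0.00943% with R5020, 0.00471% in each direction, and 0.0471% with EtOH, 0.0236% in each direction. The difference between hormone responses called 0%, although 2027 probe sets had an unadjusted p under 0.05 there. How many of all probe sets keep the arrays of compared conditions apart was not counted. Such a gap in a single gene is therefore only a description. The knockdown target CHD8 (probe set 7977693) had log2 intensities of 4.62 to 4.81 in siCHD8 against 5.24 to 5.52 in siCt with R5020. With EtOH they were 5.04 to 5.42 in siCHD8 against 5.70 to 5.91 in siCt. It did not pass the rule for a call, at log2 differences of -0.62 with R5020 (adjusted p = 0.0627 from limma) and -0.58 with EtOH (adjusted p = 0.0711). CHD8 was also lower with R5020 than with EtOH, at means of 4.73 against 5.19 in siCHD8 and 5.35 against 5.77 in siCt. Its siCHD8 EtOH arrays thus overlapped its siCt R5020 arrays. Apart from the arrays, the study reported the depletion of CHD8 by western blot and RT-qPCR. The progesterone receptor gene PGR (probe set 7951165) averaged 6.93 ± 0.10 in siCHD8 with R5020 against 8.43 ± 0.13 with EtOH, and 7.39 ± 0.03 in siCt with R5020 against 8.62 ± 0.12 with EtOH (SD, n = 3 each). Of 8 luminal breast epithelium markers 4 were called lower with R5020 in siCt. There FOXA1 changed by -1.65, PGR by -1.23, ESR1 by -0.97 and GATA3 by -0.73. The log2 of the summed linear intensities of all 8 was 12.61 to 12.66 in siCHD8 with R5020 and 12.81 to 13.01 with EtOH. In siCt it was 12.65 to 12.80 with R5020 and 13.10 to 13.18 with EtOH. Bright genes weigh most in such a sum. None of these 8 was called for the knockdown, and the part of these markers in the results was not tested. Less RNA per cell and fewer cells with the RNA cannot be told apart in such bulk samples.

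HSD11B2 was the gene of the 4 that rose with the progestin. In siCHD8 cells its log2 intensity was 6.43, 6.43 and 6.33 with R5020, against 4.16, 4.06 and 4.44 with EtOH. In siCt cells it was 7.01, 6.75 and 6.74 with R5020, against 3.96, 4.08 and 3.96 with EtOH. The R5020 arrays lay above all EtOH arrays of the same siRNA, by a gap of 1.90 in siCHD8 and 2.66 in siCt between the nearest arrays.

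The log2 change with R5020 was 2.18 in siCHD8 (95% interval 1.93 to 2.44, adjusted p = 1.10e-08 from limma) and 2.83 in siCt (2.58 to 3.09, adjusted p = 9.53e-10). It was the 35th largest rise of 21214 probe sets in siCHD8 and the 8th in siCt. These ranks are a description, because the gene was chosen with earlier results of these data known. HSD11B2 was the 1 gene of the 4 that was called in the hormone comparisons, where 3.37% of all probe sets in siCHD8 and 4.4% in siCt were called higher. Of the sum of squares of its 12 values, 97.5% lay between R5020 and EtOH, 0.181% between the siRNAs and 1.64% in the product of both, with 0.724% left within the conditions.

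Both R5020 levels of HSD11B2 stood above both EtOH levels, and the EtOH conditions overlapped with each other. With R5020 the mean was 6.40 ± 0.06 in siCHD8 and 6.83 ± 0.15 in siCt (SD, n = 3 each). With EtOH the means ran the other way, 4.22 ± 0.20 in siCHD8 and 4.0 ± 0.07 in siCt. The siRNA differences were -0.43 with R5020 (95% interval -0.69 to -0.18, adjusted p = 0.139 from limma) and 0.22 with EtOH (-0.04 to 0.47, adjusted p = 0.496), and neither was called. Without siCHD8 EtOH replicate 3 the difference with EtOH was 0.11.

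The hormone response of HSD11B2 in siCHD8 was smaller than in siCt by 0.65 on the log2 scale (SE 0.17, difference -0.65, 95% interval -1.01 to -0.29). Its unadjusted p was 0.00158 and its adjusted p 0.49 from limma, so that it did not pass the test over all probe sets, of which 0% did, and it stood 61st of 21214 by p. As a ratio of linear folds the response in siCHD8 was 0.637 of that in siCt, 4.53 over 7.12. The study named a gene CHD8-dependent when this ratio was above 1.2 or below 0.8, with no test, and HSD11B2 meets that rule. So did 35% of the 1390 probe sets called for R5020 in siCt, and 29.5% of the 933 called higher had a ratio below 0.8. The study reported a larger share of its own set of hormone-regulated genes as misregulated after CHD8 depletion. The reason for the unlike shares was not tested. The median ratio of those 933 was 0.883, with 722 below 1, and 34 had a lower ratio than HSD11B2. They were chosen by their siCt response, which is the denominator of the ratio, so these shares are a description. No source used here states whether the study divided linear folds or log2 changes. Dividing log2 changes gives 0.770 for HSD11B2. Apart from the arrays, the study measured HSD11B2 by RT-qPCR in independent experiments. It reported, with a test of its own, a severely impaired induction after CHD8 depletion at 6 h and at an earlier time. Another siRNA against CHD8 was reported to act similarly at the earlier time. By ChIP the study also reported hormone-dependent CHD8 binding near this gene. The adjusted p of 0.49 concerns the arrays alone.

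**Figure D2:**
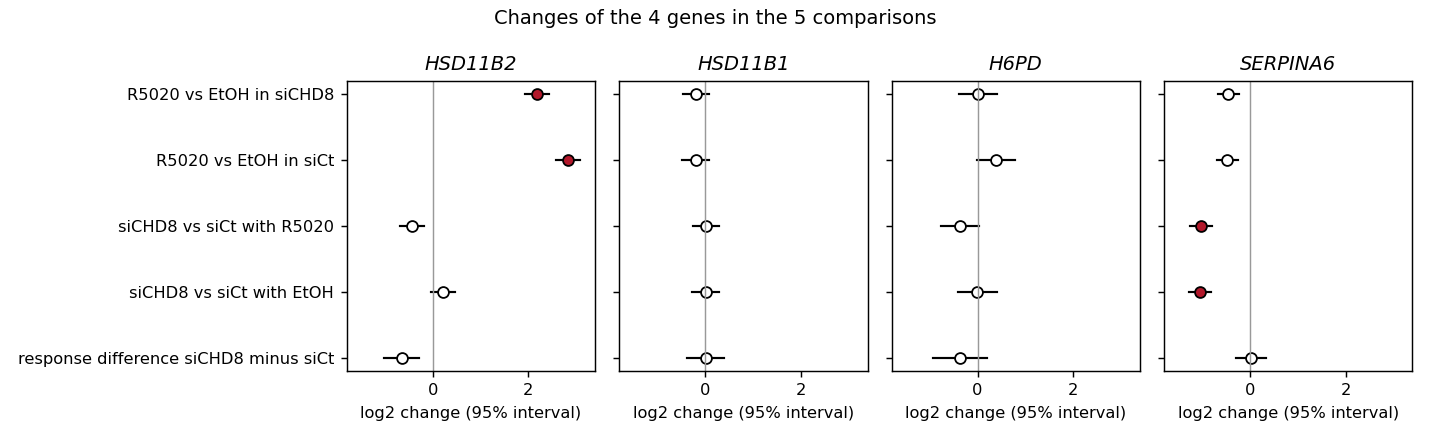
Log2 change of each gene in the 5 comparisons (points) with its 95% interval from limma (lines); filled points were called. HSD11B2 was called for R5020 under both siRNAs, at 2.18 in siCHD8 and 2.83 in siCt, and SERPINA6 for the knockdown under both treatments, at -1.02 with R5020 and -1.04 with EtOH.

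SERPINA6 was the gene of the 4 that fell with the CHD8 knockdown. With R5020 its log2 intensity was 8.62, 8.66 and 8.78 in siCHD8, against 9.69, 9.83 and 9.60 in siCt. With EtOH it was 9.24, 9.18 and 8.99 in siCHD8, against 10.16, 10.21 and 10.17 in siCt. No condition overlapped another, and the nearest siCHD8 and siCt arrays were 0.82 apart with R5020 and 0.92 apart with EtOH. The arrays hold no other siRNA against CHD8, so loss of CHD8 and other effects of this siRNA cannot be told apart.

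The SERPINA6 signal in siCHD8 cells was 49.3% of that in siCt cells with R5020 (95% interval 42.1 to 57.7%), or -1.02 on the log2 scale (limma SE 0.11, adjusted p = 0.00202). With EtOH it was 48.5% (41.5 to 56.8%), or -1.04 on the log2 scale (limma SE 0.11, adjusted p = 0.00152). SERPINA6 was the 1 gene of the 4 that was called for the knockdown, where 0.00471% of all probe sets with R5020 and 0.0236% with EtOH were called lower. SERPINA6 is itself part of these shares, as the only probe set called lower with R5020 and 1 of 5 with EtOH. It had the lowest p of all 21214 probe sets under both treatments, and it was the only probe set of the 2 called with R5020 and the 10 called with EtOH that was called in both. By size of the difference 3 probe sets lay lower than SERPINA6 under each treatment, none of which was called. The ranks of SERPINA6 too are a description, because it was chosen with earlier results of these data known.

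Over all alternatives the log2 difference ranged from -1.07 to -0.96 with R5020 and from -1.10 to -0.97 with EtOH. The adjusted p was above 0.01, so that the call was lost, when certain single arrays were left out. With R5020 it was 0.0303, 0.0279 and 0.0101 without siCHD8 R5020 replicates 1, 2 and 3, and 0.0228 and 0.0145 without siCt R5020 replicates 1 and 2. With EtOH it was 0.0115 without siCHD8 EtOH replicate 2, and 0.0119, 0.0175 and 0.0123 without siCt EtOH replicates 1, 2 and 3. Each of these fits had 2 arrays in a condition and a log2 difference near -1. The call was also lost under both treatments when all 33297 probe sets were tested or only the compared conditions were fitted.

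R5020 went with lower SERPINA6 signal under both siRNAs, by a smaller amount. In siCHD8 the mean was 8.69 ± 0.08 with R5020 and 9.14 ± 0.13 with EtOH, and in siCt it was 9.71 ± 0.12 with R5020 and 10.18 ± 0.03 with EtOH (SD, n = 3 each). The log2 change was -0.45 in siCHD8 (95% interval -0.68 to -0.22, adjusted p = 0.0106 from limma) and -0.47 in siCt (-0.70 to -0.25, adjusted p = 0.00665). The signal with R5020 was thus 73.2% of that with EtOH in siCHD8 and 72.1% in siCt. Neither change reaches a fold of 1.5, and in siCHD8 the adjusted p was also not below 0.01, so neither was called. At an adjusted p under 0.05 without a limit on the fold both would be.

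The difference between these responses was 0.02 (SE 0.15, 95% interval -0.30 to 0.34, adjusted p = 0.972 from limma). The direction turned when each array was centred on its median, to -0.01. Of the sum of squares of SERPINA6, 81.7% lay between the siRNAs, 16.3% between R5020 and EtOH and 0.01% in their product, with 1.91% within conditions. From the lowest, the order of its levels was siCHD8 with R5020, siCHD8 with EtOH, siCt with R5020 and siCt with EtOH, at linear intensities of 412, 563, 836 and 1160.

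**Figure D3:**
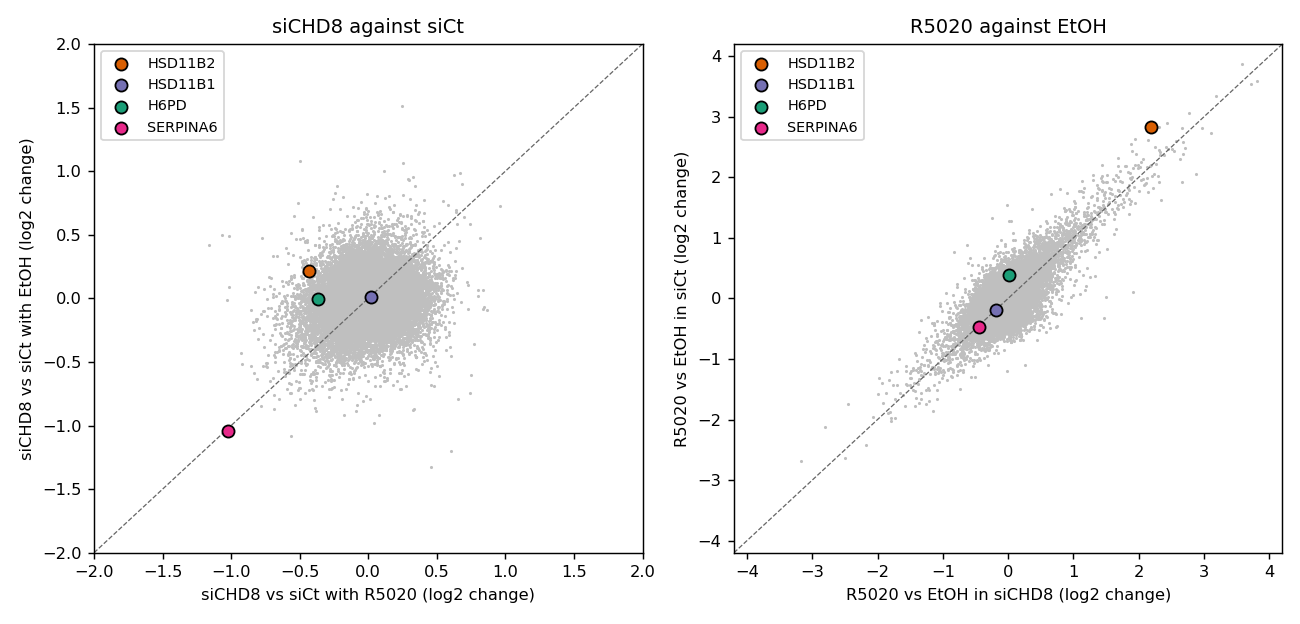
Log2 changes of the 21214 probe sets (grey) and of the 4 genes (coloured); left, siCHD8 against siCt with R5020 (horizontal) and with EtOH (vertical); right, R5020 against EtOH in siCHD8 (horizontal) and in siCt (vertical), with a dashed line where both are equal. In the left panel SERPINA6 lies at -1.02 and -1.04; in the right panel HSD11B2 lies above the line at 2.18 and 2.83.

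Neither the cortisol-activating enzyme gene nor the gene of its cofactor supply was called in any comparison. HSD11B1 had log2 intensities of 1.90, 2.11 and 1.72 in siCHD8 with R5020, 2.11, 2.28 and 1.92 in siCHD8 with EtOH, 1.89, 2.01 and 1.78 in siCt with R5020, and 1.96, 2.21 and 2.11 in siCt with EtOH. All pairs of conditions that were compared overlapped. Its change with R5020 was -0.19 in siCHD8 (95% interval -0.47 to 0.09) and -0.20 in siCt (-0.48 to 0.08), and its siRNA difference was 0.02 with R5020 and 0.01 with EtOH. The adjusted p-values from limma were between 0.347 and 0.992 over the 5 comparisons. At such a dim signal these intervals bound changes in the array signal and do not show that the transcript is absent.

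H6PD had log2 intensities of 4.65, 4.83 and 4.72 in siCHD8 with R5020, 5.11, 4.82 and 4.23 in siCHD8 with EtOH, 5.16, 5.30 and 4.84 in siCt with R5020, and 4.64, 4.60 and 4.94 in siCt with EtOH. The siCHD8 EtOH arrays spread more than those of any other condition of this gene, with an SD of 0.45. Its mean was highest in siCt with R5020, at 5.10 ± 0.24, and lay between 4.72 and 4.73 in the other conditions. The siRNA difference with R5020 was -0.37 (95% interval -0.77 to 0.03, adjusted p = 0.405 from limma). The change with R5020 was 0.01 in siCHD8 (-0.39 to 0.41, adjusted p = 0.985) and 0.38 in siCt (-0.02 to 0.78, adjusted p = 0.204), and the difference between these responses was -0.37 (-0.93 to 0.20, adjusted p = 0.654). Single arrays moved these values. Without siCHD8 EtOH replicate 3 the change in siCHD8 was -0.24 and the difference between responses -0.61, and without siCHD8 EtOH replicate 1 that difference was -0.17. Of the sum of squares, 65.5% lay within conditions for H6PD and 64.2% for HSD11B1.

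Glucose 6-phosphate and NADPH feed the HSD11B1 reaction. Of 12 measured genes of their supply, SLC37A1, a glucose 6-phosphate carrier of the endoplasmic reticulum membrane, was called lower with R5020 under both siRNAs (-0.87 in siCHD8 and -0.91 in siCt, SE 0.13). G6PC1, the liver glucose 6-phosphatase and a dim probe set with a mean of 3.2, was called higher in siCHD8 (0.94, SE 0.16, with 0.60 in siCt). The median change of the list was 0.04 in siCt, against -0.05 over all probe sets. None was called for the knockdown under either treatment. Among all probe sets R5020 called 5.6% in siCHD8 and 6.55% in siCt, and the knockdown 0.00943% with R5020 and 0.0471% with EtOH.

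Among 25 measured genes of steroid interconversion and inactivation, 2 were called higher and 1 lower with R5020 in siCt, where 4.4% of all probe sets were called higher and 2.15% lower. SRD5A1, the 5-alpha-reductase that reduces progesterone and testosterone, rose by 0.96 in siCHD8 and 0.94 in siCt (SE 0.15). HSD17B2, which oxidises estradiol and testosterone to weaker steroids, had a change of 0.57 in siCHD8, below the limits, and rose by 0.72 in siCt (SE 0.14). SULT2B1, a sulfotransferase of cholesterol and related sterols, had a change of -0.42 in siCHD8, which was not called, and fell by 1.01 in siCt (SE 0.13). STS, the steroid sulfatase, was called lower in siCHD8, at -0.70, and was at -0.47 in siCt (SE 0.11). None of the 12 measured genes of steroid synthesis was called in any comparison, nor were any of 9 steroid binding proteins and transporters, and the medians of these lists in siCt were -0.13 and 0.03.

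Of 9 measured corticosteroid receptors and chaperones, DNAJB1, a co-chaperone of HSP70, was called higher with R5020 under both siRNAs (0.90 in siCHD8 and 1.02 in siCt, SE 0.11). NR3C1, which encodes the glucocorticoid receptor, was at -0.52 in siCHD8 (SE 0.13, adjusted p = 0.014 from limma), which was not called, and was called lower in siCt at -0.69 (adjusted p = 0.00153). Shares of all probe sets were 3.37% higher and 2.23% lower in siCHD8, and 4.4% higher and 2.15% lower in siCt. The mineralocorticoid receptor gene NR3C2, picked after its values were seen because HSD11B2 shields that receptor, was at -0.39 in siCHD8 (limma adjusted p = 0.0728) and -0.46 in siCt (adjusted p = 0.0296) and was not called.

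The aldosterone-responsive sodium transport genes act downstream of the mineralocorticoid receptor in tissues that express HSD11B2, and several are also glucocorticoid targets. Of 13 measured, 5 were called higher and 1 lower with R5020 in siCHD8, and 6 higher and 1 lower in siCt. Over all probe sets 3.37% were called higher and 2.23% lower in siCHD8, and 4.4% higher and 2.15% lower in siCt. The list was chosen with earlier results of these data known, so its counts are a description and enrichment was not tested. TSC22D3, which encodes GILZ, rose by 2.07 in siCHD8 and 2.30 in siCt, and the kinase gene SGK1 by 1.99 in siCHD8 and 2.20 in siCt. SCNN1G, the gamma subunit of the epithelial sodium channel, rose by 1.45 in siCHD8 and 1.93 in siCt (SE 0.17), and ATP1B1, the beta subunit of the sodium pump, by 1.54 in siCHD8 and 1.82 in siCt (SE 0.11). USP2, a ubiquitin protease gene named because it was the one that fell, had a change of -1.71 in siCHD8 and -1.43 in siCt (SE 0.14). The list's median change was 0.01 in siCt, against -0.05 over all probe sets. No member was called for the knockdown or for a difference between responses.

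**Figure D4:**
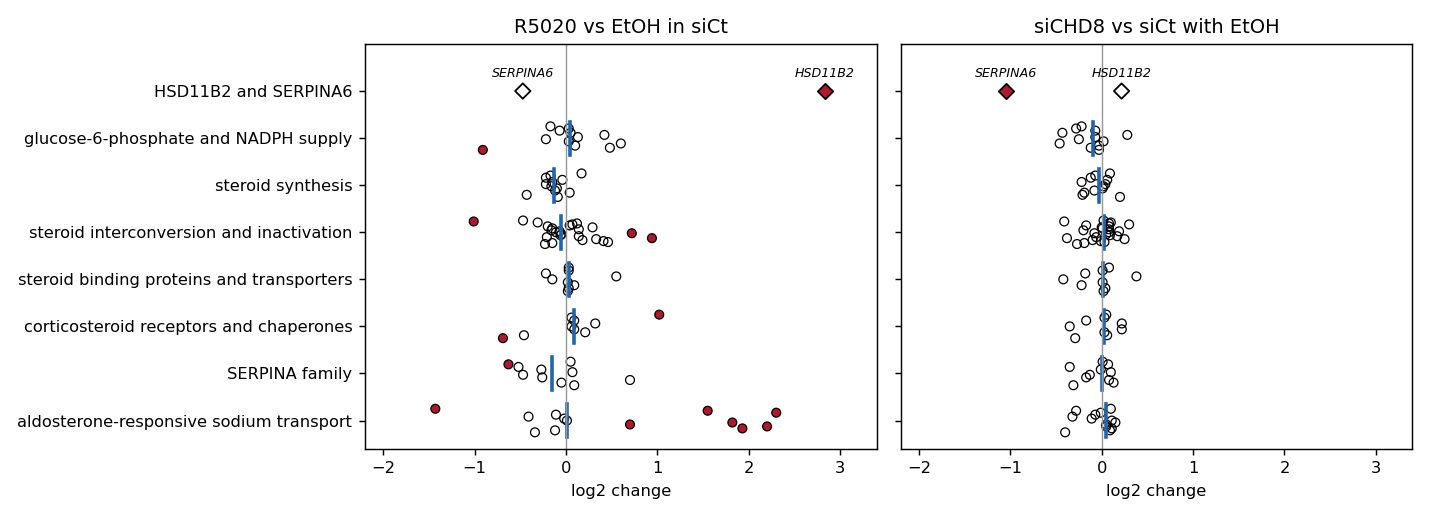
Log2 change of each measured gene of the 7 lists (circles) and of HSD11B2 and SERPINA6 (diamonds), for R5020 against EtOH in siCt (left) and siCHD8 against siCt with EtOH (right); filled symbols were called and vertical bars are list medians. Called genes of the lists appear in the left panel, up to 2.30, and none in the right panel.

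The serpins of clade A other than SERPINA6 were read beside it. Of 10 measured, 0 were called for the knockdown, with differences of -0.76 to 0.45 with R5020 and -0.35 to 0.13 with EtOH. Since the knockdown called 0.00943% of all probe sets with R5020 and 0.0471% with EtOH, a count of 0 is what the background gives and shows nothing particular to this family. For the hormone 1 was called, SERPINA11, which was at -0.25 in siCHD8, not called, and at -0.63 in siCt (SE 0.12), called lower. SERPINA1, which encodes alpha-1-antitrypsin, was picked for its place, directly adjacent to SERPINA6 when only protein-coding genes are counted. Its siRNA difference was -0.15 with R5020 and -0.31 with EtOH (adjusted p = 0.507 and 0.193 from limma).

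The liver is the main source of corticosteroid-binding globulin, so hepatocyte markers were read beside SERPINA6. Of 7, including the albumin, transthyretin and fibrinogen genes, 0 were called in any comparison. The log2 of their summed linear intensities was 5.61 to 5.77 in siCHD8 with R5020 and 5.40 to 5.69 in siCHD8 with EtOH. In siCt it was 5.40 to 5.55 with R5020 and 5.67 to 5.71 with EtOH. Each of the 7 averaged less than the median probe set. Of 4 measured markers of kidney collecting duct and placenta, the tissues known for HSD11B2, SCNN1G was called higher with R5020 under both siRNAs and PSG1, a dim probe set, lower in siCHD8 (-1.05, SE 0.23). Of 6 fibroblast markers and 6 blood and endothelial markers 0 were called in any comparison. R5020 called 5.6% of all probe sets in siCHD8 and 6.55% in siCt. The knockdown called 0.00943% with R5020 and 0.0471% with EtOH. Counts of 0 in lists this short are near those shares and show nothing particular to these markers.

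The values of genes next to the members on the chromosome are given beside them. Of the 10 protein-coding neighbours of HSD11B2 on chromosome 16, 5 on each side, 0 were called in any comparison, where R5020 in siCt called 6.55% of all probe sets. Their changes with R5020 in siCt ran from -0.57 to 0.19, against 2.83 for HSD11B2 itself, and the directly adjacent ZDHHC1 and ATP6V0D1 were at -0.24 and 0.18. Of the 10 neighbours of SERPINA6 on chromosome 14, 0 were called for the knockdown, with differences of -0.15 to 0.45 with R5020 and -0.57 to 0.07 with EtOH, where 0.00943% of all probe sets with R5020 and 0.0471% with EtOH were called, so that this count too is at the background. On chromosome 1, 2 of 9 measured neighbours of H6PD were called higher with R5020 in siCt: the adjacent SPSB1, an adaptor of a ubiquitin ligase (1.28 in siCHD8 and 1.69 in siCt, SE 0.13), and SLC25A33, a mitochondrial pyrimidine nucleotide carrier (0.55 in siCHD8 and 0.78 in siCt, SE 0.12). Over all probe sets 4.4% were called higher in siCt. None of 8 measured neighbours of HSD11B1, which is also on chromosome 1, was called in any comparison.

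**Figure D5:**
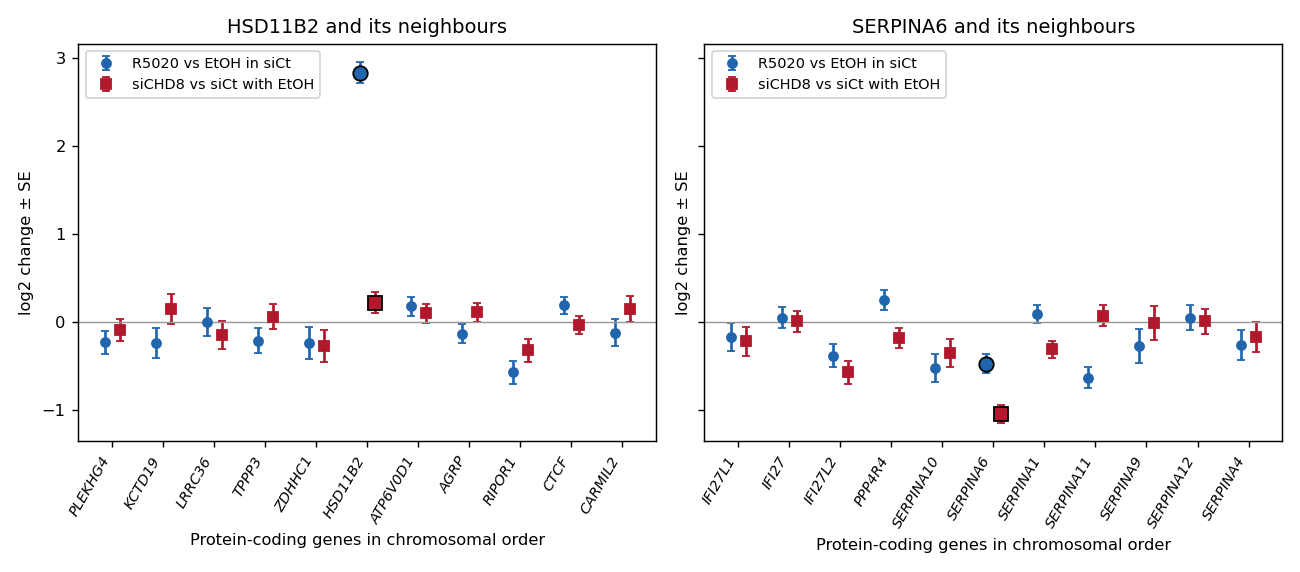
Log2 change (symbols) with its SE (bars) of HSD11B2 and its 10 protein-coding neighbours (left) and of SERPINA6 and its 10 neighbours (right), in chromosomal order, for R5020 against EtOH in siCt (circles) and siCHD8 against siCt with EtOH (squares); outlined symbols are the 2 genes. HSD11B2 at 2.83 and SERPINA6 at -1.04 lie outside the range of their neighbours in those comparisons.

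Across the 12 arrays and 18418 genes, the pattern of HSD11B2 was most like that of TIPARP (Pearson r = 0.995), RNF122 (0.995), SRGAP1 (0.993), CAMSAP1 (0.993) and SETD7 (0.992). The closest, TIPARP, an ADP-ribosyltransferase gene, changed with R5020 by 2.30 in siCHD8 and 2.84 in siCt. In all 5 of them the change was smaller in siCHD8 than in siCt, with differences of -0.24 for SETD7 to -0.66 for RNF122, and each had a negative siRNA difference with R5020, from -0.43 to -0.16, and a positive one with EtOH, from 0.08 to 0.30. The pattern of SERPINA6 was most like that of SLC23A1, a vitamin C transporter (0.960), C12orf75 (0.959), LRRC46 (0.958), CDC20B (0.955) and ERCC3, a helicase subunit of the repair and transcription factor TFIIH (0.952). Their siRNA differences were -0.84 to -0.66 with R5020 and -0.87 to -0.57 with EtOH, smaller in size than those of SERPINA6, and CDC20B was called for the knockdown with EtOH. These correlations are descriptions over arrays that share the 4 conditions, and the genes were ranked by them. That their changes go the same way as those of HSD11B2 or SERPINA6 therefore follows from how they were picked.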

How the data were processed

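RNA of 12 T47D-MTVL samples was hybridised to Affymetrix GeneChip Human Gene 1.0 ST arrays. The authors extracted the scans with Command Console, applied RMA, which corrects background, equalises array distributions and summarises probes, and used oneChannelGUI. They deposited log2 intensities, and no source used here gives versions. Nothing was normalized again, and 0 columns were left unused. Of 33297 probe sets, 21214 with at least 1 gene symbol in the platform annotation were tested, 19461 with 1 symbol and 1753 with several. Array medians lay between 4.52 and 4.62, and arrays correlated at 0.989 to 0.996 within conditions and 0.976 to 0.994 between them. With 3 arrays per condition their number limits the precision, and the labels give no slide or scan batch. The sample titles call the arrays biological replicates, and the protocol says that RNA was isolated in triplicate. Neither says whether the cultures were separate, so p-values measure the spread between these samples, which may be technical.

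The 4 condition means were estimated from all 12 arrays in limma 3.58.1 (R 4.3.3; lmFit, contrasts.fit, eBayes), with Benjamini-Hochberg adjustment over 21214 probe sets. It was tested on simulated data. Intervals are at 95% from the moderated fit. Counts and figures were made with Python 3.11.15, pandas 2.3.3, numpy 2.4.6 and matplotlib 3.10.9. Promoter windows of HSD11B1, H6PD and SERPINA6 came from RefSeq (GRCh38.p14), and none was at hand for HSD11B2. The members and lists were chosen with earlier results of these data known. Genes named are the 4 members, up to 4 of each list called for R5020 in siCt with the largest changes, up to 2 called in another comparison, neighbours by place, the 5 most correlated genes, CHD8 and PGR. Lists are described by counts and medians, with no test.

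Alternatives changed the scaling (centring on array medians, a further quantile step), the features (mean under 4.59 removed, every probe set, the brightest per gene), the fit (array weights, a trended and robust variance, a replicate block, only the conditions compared), the rule (an adjusted p of 0.05 with no fold limit, log2 changes divided), and the arrays (each left out). Leaving out both arrays of lowest weight was added after the data were seen.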

Additional observations from a re-analysis of the deposited data

How the results depend on the processing

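HSD11B2 kept its direction and its side of the threshold in all 5 comparisons under every alternative that was run. Its change with R5020 ranged from 2.10 to 2.29 in siCHD8 and from 2.74 to 2.88 in siCt with arrays left out, its difference between siRNAs with EtOH from 0.108 to 0.297, and its ratio of folds from 0.603 to 0.687, with 0.770 when log2 changes were divided. For SERPINA6 the knockdown call was lost, with the same log2 difference, when all probe sets were tested (adjusted p = 0.016 at -1.02 with R5020, 0.0115 at -1.04 with EtOH) and when only the compared conditions were fitted (0.0211 with R5020, 0.0986 with EtOH), settings that add tests or drop arrays. It was also lost with R5020 with the replicate number as a block (-1.02, adjusted p = 0.0127), and with EtOH at -1.10 (0.0141) without siCHD8 EtOH replicate 1 and siCt EtOH replicate 3, whose weights were lowest. With arrays left out the difference was -1.07 to -0.96 with R5020 and -1.09 to -0.97 with EtOH. At an adjusted p under 0.05 with no fold limit the SERPINA6 hormone changes of -0.45 (siCHD8) and -0.47 (siCt) passed. The following reversed between values near 0, none of them called: the SERPINA6 response difference, -0.00864 with median centring and -0.0487 to 0.0860 with arrays left out; that of HSD11B1, -0.0224 with median centring, -0.0169 with quantile normalization, -0.0739 with array weights and -0.0915 to 0.106 with arrays left out; the HSD11B1 knockdown, with quantile normalization -0.0448 with R5020 and -0.0279 with EtOH, and with arrays left out -0.0824 to 0.115 with R5020 and -0.0817 to 0.102 with EtOH; and for H6PD the knockdown with EtOH, 0.0170 with median centring, 0.0566 with array weights and -0.198 to 0.245 with arrays left out, and the hormone change in siCHD8, -0.235 to 0.208 with arrays left out. The H6PD response difference kept its sign, at -0.613 to -0.170 with arrays left out.

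The knockdown called 2 probe sets with R5020 and 10 with EtOH. Without dim probe sets it called 16 with R5020 and 26 with EtOH, with all probe sets 0 and 0, with a trended and robust variance 22 and 27, with array weights 72 and 3, with the compared conditions alone 0 and 0, with the replicate block 0 and 1, at an adjusted p under 0.05 with no fold limit 40 and 62, and with single arrays left out 0 to 2 under each treatment. Median centring gave 1 with R5020, and leaving out both arrays of lowest weight 0 with EtOH. At an adjusted p under 0.05 the hormone called 2432 in siCHD8 and 2992 in siCt, and with single arrays left out 945 to 1235 in siCHD8 and 1128 to 1412 in siCt. The difference between responses called 0, and 1 without siCHD8 R5020 replicate 1. The cause of these changes was not tested. Same-numbered samples did not deviate together (r from -0.247 to 0.196 over 18 pairs, 4 above 0.1), so the block result stands here alone; it changed no other call of the 4 genes. The filter on dim probe sets removed HSD11B1, the second brightest probe set could not be tried because each gene has 1, and the compared conditions alone have no response difference.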
